A study of Mus musculus with 2 samples.

Results

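The genes described here are 44 genes of the cell cycle and of DNA replication, out of 17176 genes named on the array. They were taken by name, through every probe whose transcript accession belongs to one of them. The rule uses no measured value, but the genes and their grouping were chosen with earlier results of these data known. The study set splenic CD8+ cytotoxic T cells beside splenic CD4+ helper T cells, both from wild-type mice of strain C57B6 and isolated by cell sorting, to compare the expression profiles of the cytotoxic and the helper cells. Which surface markers were used to sort, how old the mice were and how many stand behind each array is not given in the labels or files. There was 1 one-colour Agilent array for the CD8+ cells and 1 for the CD4+ cells, both on 1 slide. A single array per cell type allows no statistical test, and every difference below describes these 2 arrays.

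A resting T cell sits outside the cell cycle, and cells that divide switch on 2 gene programs in turn. The first, driven by E2F transcription factors at the end of G1, makes the proteins that license replication origins, copy DNA and supply nucleotides. The other peaks in G2 and mitosis and makes the cyclins, kinases and motor proteins that condense, align and separate the chromosomes and cut the cell apart. Spleen T cells are mostly quiescent, and their dividing fraction includes activated effector cells and regulatory T cells. The 44 genes were therefore split into 18 S phase genes, 18 mitosis genes, 5 G1 cyclins and kinases and 3 inhibitors of the cyclin-dependent kinases. The mitosis genes take in Ccna2, Top2a and Mki67, which are already made before mitosis starts.

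Signals are processed intensities multiplied by 1.06 on the CD8+ array and by 0.940 on the CD4+ array, so that both arrays share the same 75th percentile; they are called scaled signals. The number after ± is the scanner software's own error of the spot, which covers the measurement of that spot and no spread between mice. Differences are log2 values of the CD8+ array minus the CD4+ array. Between replicate spots of a probe the difference had an SD of 0.16 (158 probes), and between different probes of a gene an SD of 0.23 (3972 genes). A signal is compared only with that of the same probe on the other array.

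The lineage genes lay as labelled. Cd8a, the CD8 alpha chain, had a scaled signal of 53178 on the CD8+ array and 503 on the CD4+ array, and Cd4 had 70.2 on the CD8+ array and 289 on the CD4+ array. All 10 T cell markers, among them Cd3e, were well above background on both arrays. Of the spots that were not controls, 58.6% on the CD8+ array and 63.1% on the CD4+ array were well above background.

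All 44 genes were well above background on both arrays. Of their 62 probes, 58 were above background on both arrays, 3 on neither, and none was saturated. The mitosis genes were lower in the CD8+ array almost as a block, whereas the S phase genes were split evenly around 0. Of the 18 mitosis genes, 16 were lower in the CD8+ array, against 45.9% of the 11957 genes above background on both arrays, and 8 were at least 1.5-fold lower, against 8.51% of those genes. Their median log2 difference was -0.50, beside 0.03 over all genes. Of the 18 S phase genes, 9 were lower in the CD8+ array and 2 were at least 1.5-fold lower, and their median was 0.05, which turned slightly negative after loess and with the 75th percentile taken over detected probes. A difference of 1.5-fold or more in favour of the CD8+ array was seen in 2 S phase genes and 1 mitosis gene, against 5.54% of all genes. With the genes above background on 1 array counted as well, 9.77% of 13058 genes were past 1.5-fold toward the CD4+ array and 6.07% toward the CD8+ array. The RNA of a whole sorted population was measured, so fewer dividing cells and less RNA per dividing cell cannot be told apart.

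**Figure D1:**
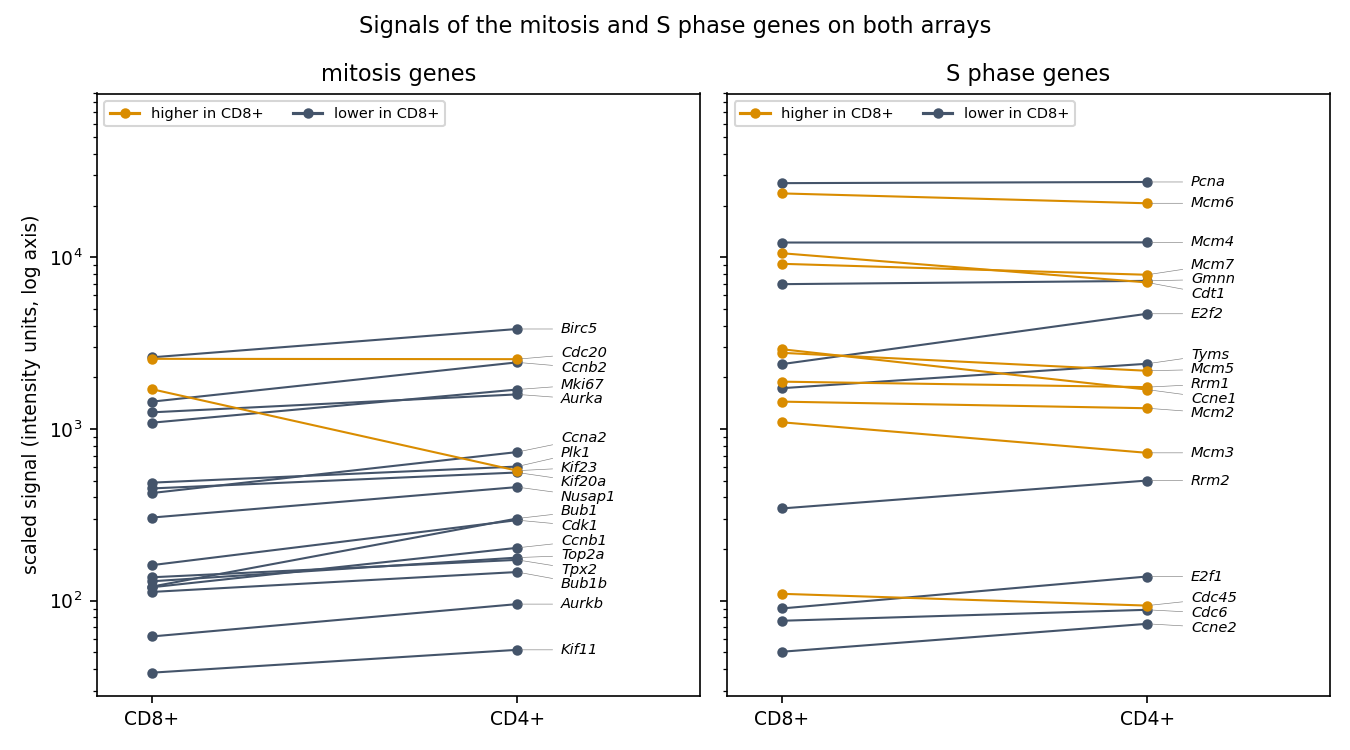
Scaled signal (intensity units, log axis) of each mitosis gene (left) and S phase gene (right) on the CD8+ and the CD4+ array, 1 line per gene, orange where the CD8+ array was higher and dark blue where it was lower. In the mitosis genes 16 of 18 lines are dark blue, and the steep orange line is Kif23; in the S phase genes 9 of 18 are dark blue. Signals of different genes come from different probes and cannot be ranked.

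By their scaled signals the mitotic cyclins and their kinase differed by nearly the same factor. Ccna2, the cyclin of S and G2 phase, had a scaled signal of 424 ± 42.5 on the CD8+ array and 734 ± 73.5 on the CD4+ array. Ccnb1, cyclin B1, had 119.8 ± 12.4 on the CD8+ array and 203 ± 20.5 on the CD4+ array. Ccnb2, cyclin B2, had 1444 ± 144 on the CD8+ array and 2445 ± 245 on the CD4+ array. These are differences of -0.79, -0.76 and -0.76, and the 3 probes of Ccnb1 ran from -0.76 to -0.71. Cdk1, the kinase that the B cyclins activate to start mitosis, had 161 ± 16.5 on the CD8+ array and 295 ± 29.6 on the CD4+ array, which is 1.83-fold lower in the CD8+ array. All 4 were at least 1.5-fold lower by these signals. The 6 probes that measured them above background on both arrays all gave lower values in the CD8+ array. With normexp background correction the factors were less alike, with a difference of -0.96 for Ccnb2 and -0.60 for Ccna2. Cdk1 and Ccnb1 then had -0.58 and -0.56, both under a 1.5-fold change.

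Bub1, a kinase of the spindle checkpoint, had the largest difference in that direction among the 44 genes. By its brighter probe it had a scaled signal of 120.9 ± 12.5 on the CD8+ array and 301 ± 30.2 on the CD4+ array, 2.49-fold lower in the CD8+ array. Its other probe gave a difference of -0.58, under a 1.5-fold change, so the size depends on the probe while the direction does not. Bub1b, the checkpoint partner BubR1, was 1.31-fold lower in the CD8+ array (113 on the CD8+ array, 147 on the CD4+ array). Bub1 was the only gene of the 44 at least 2-fold lower in the CD8+ array, against 3.81% of all genes, and with the mean over its probes it was not. E2f2 also passed 2-fold in 3 of the 12 alternative settings, reaching -1.03 with the percentile over detected probes.

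The proliferation marker Mki67, whose protein Ki-67 coats mitotic chromosomes, had 1089 ± 109 on the CD8+ array and 1699 ± 170 on the CD4+ array, a difference of -0.64, and its other probe gave -0.74. Top2a, the topoisomerase that untangles sister chromatids, had 129.8 ± 13.4 on the CD8+ array and 178 ± 18.0 on the CD4+ array, a difference of -0.46. Both were thus lower in the CD8+ array, Mki67 by 1.56-fold and Top2a by 1.37-fold.

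The kinases and the passenger complex of mitosis were lower in the CD8+ array as well. Aurkb, aurora kinase B, and Birc5 (survivin), its partner in the chromosomal passenger complex, had differences of -0.63 and -0.55. Aurkb read 62.0 ± 7.13 on the CD8+ array and 95.6 ± 10.07 on the CD4+ array, and Birc5 read 2617 ± 262 on the CD8+ array and 3826 ± 383 on the CD4+ array. The difference of Aurkb, a dim probe, shrank to -0.12 with normexp background correction. Aurka, aurora kinase A of the spindle poles, had a difference of -0.35, its activator Tpx2 one of -0.34, and Plk1, polo-like kinase 1, one of -0.31. Each of these 3 differences is larger than the SD between replicate spots and all are below a 1.5-fold change.

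Among the spindle proteins, Nusap1, a microtubule-binding protein, was 1.504-fold lower in the CD8+ array (305 ± 30.7 on the CD8+ array, 459 ± 46.0 on the CD4+ array). Kif11, the motor that pushes the spindle poles apart, had a difference of -0.44, which was -0.05 with normexp. Kif20a, a kinesin of the late spindle, had a difference of -0.31. Cdc20, the activator of the anaphase-promoting complex, read 2564 ± 256 on the CD8+ array and 2552 ± 255 on the CD4+ array, a difference of 0.01 whose sign turned in 3 of the 12 alternative settings.

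Kif23 stood against the rest of the mitosis genes. It encodes the kinesin MKLP1, which bundles microtubules of the central spindle and is needed for the last step of cell division. Its brighter probe had a scaled signal of 1706 ± 171 on the CD8+ array and 572 ± 57.3 on the CD4+ array, 2.98-fold higher in the CD8+ array. Both probes gave nearly the same difference, 1.58 and 1.57. Of the 44 genes it alone exceeded 2-fold in favour of the CD8+ array, against 1.94% of all genes, and 99.2% of all genes had a smaller value. Without Kif23 the median of the other 17 mitosis genes was -0.55, and 16 of them were lower in the CD8+ array.

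The partner of Kif23 had the same direction. Racgap1, which is not among the 44 genes but in the list of other mitosis genes, encodes the GTPase-activating protein that binds MKLP1 to form the centralspindlin complex. It had a scaled signal of 906 ± 90.7 on the CD8+ array and 178 ± 18.0 on the CD4+ array by the brighter of its probes. The other probe read 311 ± 31.3 on the CD8+ array and 53.9 ± 6.09 on the CD4+ array. The probes thus put it 5.09-fold and 5.77-fold higher in the CD8+ array. The log2 difference of 2.35 was 1.86 with normexp background correction and 1.95 with the authors' series values. Some other proteins of the same structure and step went the other way. Prc1, which cross-links central spindle microtubules, had a difference of -0.93. Ect2, the exchange factor that Racgap1 recruits, had one of -0.37, and Cep55, a midbody protein, one of -0.38. Not all did: Kif20b, a kinesin that also acts late in division, had 0.19, and Cit, citron kinase, had 0.36. Of the 46 other mitosis genes above background on both arrays, only Racgap1 exceeded 1.5-fold in favour of the CD8+ array by the brighter probe.

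**Figure D2:**
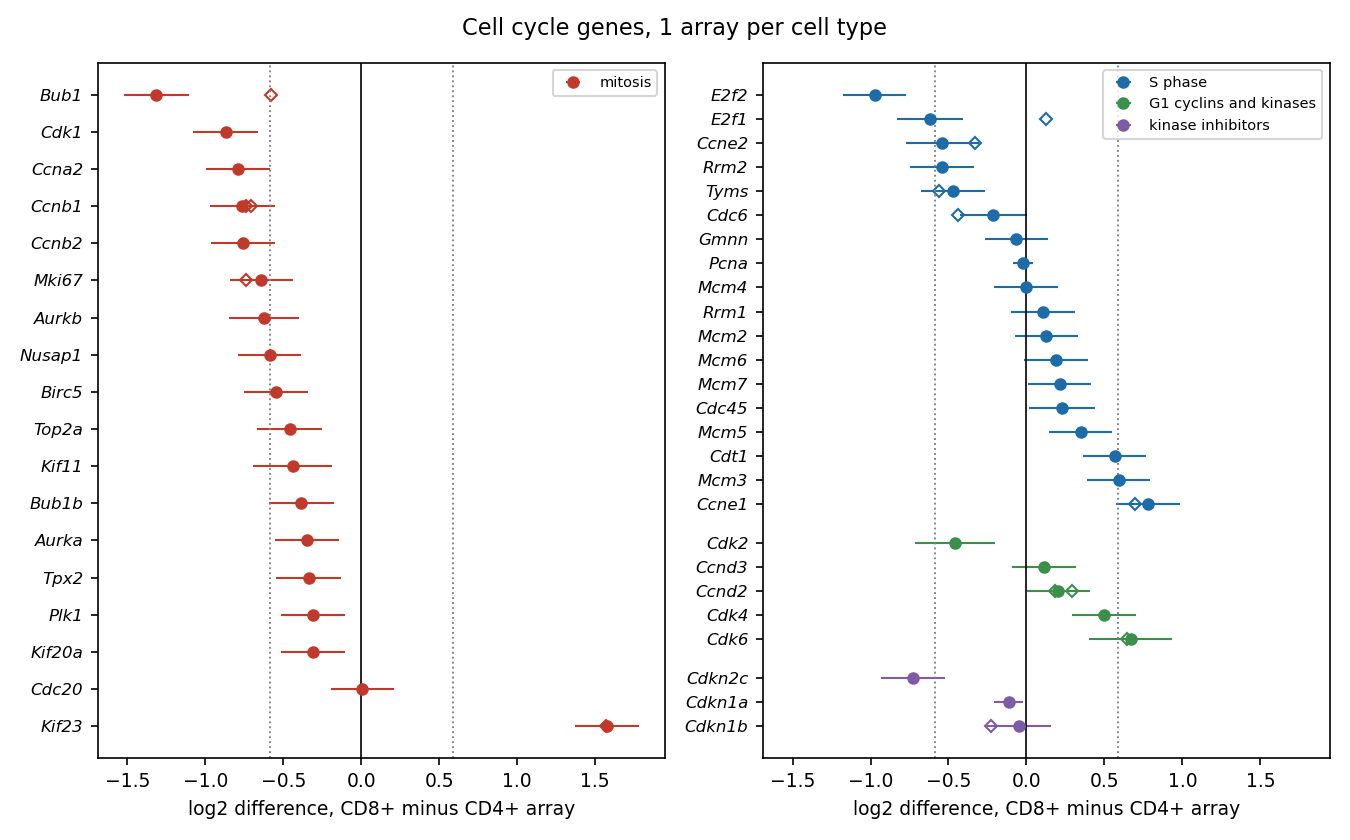
Log2 difference (CD8+ minus CD4+ array) of the mitosis genes (left) and of the S phase genes, G1 cyclins and kinases, and kinase inhibitors (right). Filled points are the probe used for each gene with the scanner software's error as a bar, open diamonds are its other probes above background on both arrays, and dotted lines mark 1.5-fold. Bub1 at -1.32 and Kif23 at 1.58 are the extremes, and the probes of E2f1 lie on both sides of 0.

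The MCM genes encode the 6 subunits of the ring-shaped helicase that is loaded at replication origins in G1 and unwinds DNA in S phase. None was lower in the CD8+ array beyond the spot error. Mcm6 had a scaled signal of 23569 ± 2357 on the CD8+ array and 20646 ± 2065 on the CD4+ array, and Mcm7 had 9169 ± 917 on the CD8+ array and 7915 ± 791 on the CD4+ array. Mcm2 had a difference of 0.13 and Mcm4 one of -0.0032, whose sign turned in 2 of the 12 alternative settings. Mcm5 read 2779 ± 278 on the CD8+ array and 2185 ± 218 on the CD4+ array, a difference of 0.35. Mcm3 read 1095 ± 109.5 on the CD8+ array and 727 ± 72.7 on the CD4+ array, 1.51-fold higher in the CD8+ array. The median of the 6 was 0.20, and 5 of them were higher in the CD8+ array, against 54.1% of all genes. Of these, Mcm2 and Mcm6 (0.19) were within their scanner error of 0.20, and Mcm7 (0.21) was barely above it.

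The loading factors did not share 1 direction. Cdt1, which brings the MCM ring to the origin, had 10566 ± 1057 on the CD8+ array and 7142 ± 714 on the CD4+ array, 1.48-fold higher in the CD8+ array. Cdc6, which loads the ring together with Cdt1, had a difference of -0.21 by its brighter probe and -0.44 by the other. Gmnn, geminin, the inhibitor of Cdt1, had a difference of -0.06 that was positive with median scaling. Cdc45, which joins the MCM ring to make the active helicase, had a difference of 0.23. Of these 4 genes only Cdt1 had a difference more than 2 times its scanner error of 0.20.

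Pcna, the sliding clamp that holds DNA polymerase on its template, was measured with 10 spots on each array. They ran from 25498 to 29039 on the CD8+ array, with a mean of 27072 ± 1197 (SD over spots), and from 25876 to 29015 on the CD4+ array, with a mean of 27494 ± 1052. The ranges overlapped nearly whole, and the difference was -0.02. The difference of Pcna was positive with median scaling.

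The nucleotide supply genes were split. Rrm2, the subunit of ribonucleotide reductase that is made in S phase, had 345 ± 34.7 on the CD8+ array and 501 ± 50.2 on the CD4+ array, a difference of -0.54. Tyms, thymidylate synthase, had 1730 ± 173 on the CD8+ array and 2400 ± 240 on the CD4+ array, a difference of -0.47 by its brighter probe and -0.56 by the other. Rrm1, the large subunit of the reductase, which is present throughout the cycle of dividing cells, had a difference of 0.11.

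The E cyclins, which activate Cdk2 at the start of S phase, differed in opposite directions. Ccne1 had a scaled signal of 2916 ± 292 on the CD8+ array and 1697 ± 170 on the CD4+ array, 1.72-fold higher in the CD8+ array, and its other probe gave a difference of 0.70. Ccne2 had 50.5 ± 6.12 on the CD8+ array and 73.4 ± 7.92 on the CD4+ array, a difference of -0.54, and its other probe gave -0.33. Ccne1 had the largest difference in favour of the CD8+ array among the S phase genes.

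Of the E2F factors that drive the S phase program, E2f2 was lower in the CD8+ array, E2f1 was not settled and E2f3 was nearly level. E2f3, taken from a further list of G1 control genes, had scaled signals of 1027 on the CD8+ array and 1013 on the CD4+ array, a difference of 0.02. E2f2, an activator of the family, had 2389 ± 239 on the CD8+ array and 4693 ± 469 on the CD4+ array, 1.96-fold lower in the CD8+ array, by its only probe. E2f1 had 90.2 ± 9.62 on the CD8+ array and 138 ± 14.1 on the CD4+ array by its brighter probe, a difference of -0.62. Its other probe, with replicate spots, ran from 44.9 to 59.9 over 9 spots on the CD8+ array and from 36.4 to 57.0 over 10 spots on the CD4+ array, a difference of 0.12. The probes of E2f1 disagree in sign, so it has no settled direction. Among the 12 genes with several probes above background on both arrays, E2f1 was the only one whose probes differed in sign.

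**Figure D3:**
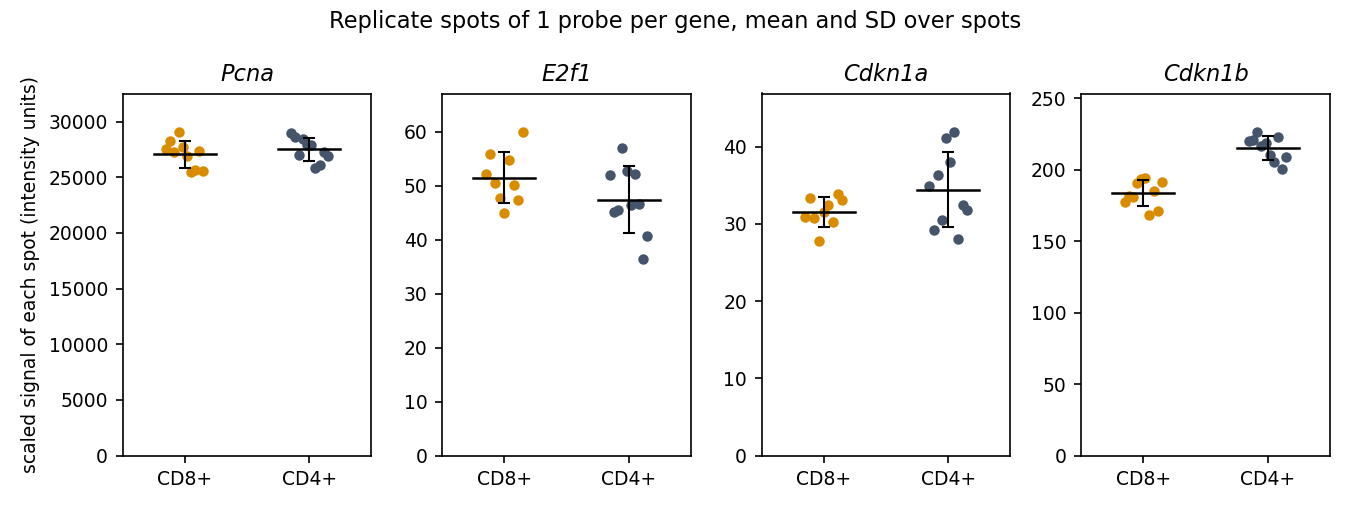
Scaled signal (intensity units, axis from 0) of each replicate spot of 1 probe for Pcna, E2f1, Cdkn1a and Cdkn1b on the CD8+ (left) and CD4+ array (right), with the mean and SD over 9 or 10 spots. The ranges overlap for Pcna, E2f1 and Cdkn1a, and for Cdkn1b all CD8+ spots lie below all CD4+ spots.

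Outside S phase and mitosis, the cyclins and kinases of G1 were level or higher in the CD8+ array, except Cdk2. Ccnd2 and Ccnd3, the D cyclins of lymphocytes, had differences of 0.21 and 0.11, and the 3 probes of Ccnd2 ran from 0.19 to 0.29. Cdk4 had 1515 ± 152 on the CD8+ array and 1075 ± 107.5 on the CD4+ array, 1.41-fold higher in the CD8+ array. Cdk6, the other partner of the D cyclins, had 43.0 ± 5.33 on the CD8+ array and 27.1 ± 3.67 on the CD4+ array, 1.59-fold higher in the CD8+ array, and its 2 probes gave differences of 0.67 and 0.64. With normexp the difference of Cdk6 was 0.24. Cdk2, the partner of the E and A cyclins, had 38.3 ± 5.15 on the CD8+ array and 52.5 ± 6.02 on the CD4+ array, a difference of -0.46 that was -0.15 with normexp.

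Of the inhibitors, Cdkn2c (p18INK4c, which blocks Cdk4 and Cdk6) had 723 ± 72.4 on the CD8+ array and 1198 ± 119.8 on the CD4+ array, 1.66-fold lower in the CD8+ array. Cdkn1b (p27KIP1, which holds resting lymphocytes out of the cycle) had 2430 ± 243 on the CD8+ array and 2510 ± 251 on the CD4+ array by its brighter probe, a difference of -0.05 that was positive with median scaling. Its other probe had 10 spots per array, from 168.5 to 194 on the CD8+ array and from 200.9 to 226 on the CD4+ array. These spots did not overlap, although their difference of -0.23 is no larger than the SD between different probes of a gene. Cdkn1a (p21CIP1, a target of p53) ran from 27.8 to 33.9 over 9 spots on the CD8+ array and from 28.1 to 41.9 over 10 spots on the CD4+ array, a difference of -0.11 whose sign turned in 4 of the 11 alternative settings that gave it a value.

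Other genes of the same steps were taken from 4 further lists. These lists were chosen with earlier results of these data known and were measured on the same arrays. Of 50 other mitosis genes, 46 were above background on both arrays; Ttk, Anln and Hmmr were above background on neither, and Incenp had no named probe. Lower in the CD8+ array were 37 of the 46, against 45.9% of all genes, and 10 were at least 1.5-fold lower, against 8.51% of all genes. Their median was -0.35. The largest differences in that direction were those of Melk, a mitotic kinase (-0.96), Prc1, the chromatin protein gene Hmgb2 (-0.93, but -0.46 by its dimmer probe) and Nek2, a centrosome kinase (-0.93, but -0.39 with normexp). On the other side, after Racgap1, stood Dlgap5 at 0.21, the condensin subunit gene Ncapd2 at 0.15 (but 0.66 by its dimmer probe, past 1.5-fold) and Tacc3 at 0.10.

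Of 46 other S phase genes, 44 were above background on both arrays; Clspn was on neither and Gins1 had no named probe. None was at least 1.5-fold lower in the CD8+ array, against 8.51% of all genes. By any amount, 18 of the 44 were lower, against 45.9% of all genes, and the median was 0.08. Pola2, a subunit of the polymerase that starts new strands, was 1.81-fold higher in the CD8+ array, with 506 on the CD8+ array and 279 on the CD4+ array. Next to it stood Wdhd1, a replisome adaptor (0.55), Ung, the uracil glycosylase (0.55), and Pole, the catalytic subunit of the leading-strand polymerase (0.51). Among those in the other direction were Tk1, thymidine kinase (-0.38), the histone chaperone gene Asf1b (-0.26) and Mcm10 (-0.19).

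**Figure D4:**
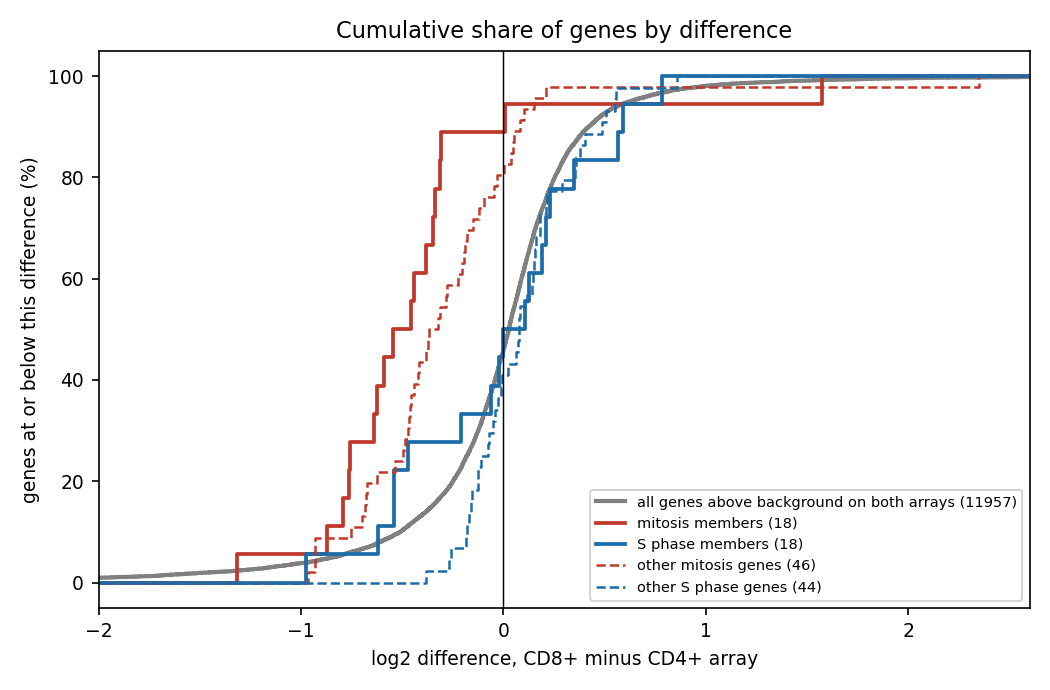
Cumulative share of genes (percent, y axis) at or below each log2 difference (CD8+ minus CD4+ array, x axis) for the 18 mitosis and 18 S phase genes (solid), for 46 other mitosis and 44 other S phase genes (dashed) and for all 11957 genes above background on both arrays (grey). The mitosis curves lie left of the grey curve, with medians of -0.50 and -0.35, and the S phase curves cross or follow it, with medians of 0.05 and 0.08.

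Among 18 further genes of G1 control, 14 were above background on both arrays, with a median of -0.06. Rb1, the retinoblastoma protein that holds E2F factors in check, was 1.77-fold lower in the CD8+ array, and Cdc25a, the phosphatase that activates Cdk2, was 1.94-fold lower from a dim probe, a log2 difference of -0.96 that was -0.03 with normexp. E2f4, a repressor of the family, had a log2 difference of 1.01 from a dim probe (0.47 with normexp), followed by E2f5 (0.46) and Myc (0.44). The remaining genes chosen for their size were Rbl2 (-0.36), Mnat1 (-0.26) and E2f6 (0.07). Of 13 further brakes of the cycle, 12 were above background on both arrays, with a median of -0.13. Cdkn1c (p57KIP2) was 2.66-fold lower in the CD8+ array and Cdkn2b (p15INK4b) 1.89-fold lower, from dim probes whose log2 differences of -1.41 and -0.92 were -0.39 and -0.50 with normexp. Gadd45a and Ccng1, both targets of p53, had differences of -0.58 and -0.53, while Mdm2 had 0.04, Tob1 0.14 and Btg1 0.10. Trp53 itself had 0.11 by its brighter probe and -0.09 by the other, so its direction is not settled. The signs of E2f6 and Mdm2 turned in some of the alternative settings, and Btg1 was level in one.

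The promoters of the 2 programs carry different sequence elements, and these are printed for genes on both sides of the split. E2F sites mark S phase genes, while the CHR (cell cycle genes homology region) and CCAAT boxes mark genes of G2 and mitosis. A promoter in RefSeq's GRCm38.p6 table, from 250 bases before the start to 50 after it, was found for 36 of the 44 genes; Ccna2, Ccnd2, Ccne2, Aurkb, Kif20a, Tpx2, Gmnn and Mcm4 were not in it. The words searched on both strands were TTTGAA for the CHR, CCAAT, and TTTCCCGC, TTTCGCGC, TTTGCCGC and TTTGGCGC for E2F, where E2F words on opposite strands can overlap. Printed are 150 bases before to 30 after the start, in lower case, with every match of these words on either strand in capitals. The first 2 are mitosis genes lower in the CD8+ array, the next 2 are the centralspindlin pair, and the last 2 are MCM genes.
Cdk1, chr10:69352883-69353062, minus strand: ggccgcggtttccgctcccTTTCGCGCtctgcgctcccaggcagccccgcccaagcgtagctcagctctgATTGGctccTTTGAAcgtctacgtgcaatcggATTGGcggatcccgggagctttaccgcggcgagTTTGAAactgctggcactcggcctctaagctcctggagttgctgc
Ccnb2, chr9:70421525-70421704, minus strand: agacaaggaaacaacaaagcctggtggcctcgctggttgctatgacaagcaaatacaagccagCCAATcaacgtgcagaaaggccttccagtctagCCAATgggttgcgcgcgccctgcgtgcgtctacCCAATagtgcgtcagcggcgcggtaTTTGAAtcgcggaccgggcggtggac
Kif23, chr9:61946770-61946949, minus strand: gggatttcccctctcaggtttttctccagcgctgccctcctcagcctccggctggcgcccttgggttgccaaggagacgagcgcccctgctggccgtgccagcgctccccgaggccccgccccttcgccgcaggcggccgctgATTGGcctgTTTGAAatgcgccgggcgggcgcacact
Racgap1, chr15:99651627-99651806, minus strand: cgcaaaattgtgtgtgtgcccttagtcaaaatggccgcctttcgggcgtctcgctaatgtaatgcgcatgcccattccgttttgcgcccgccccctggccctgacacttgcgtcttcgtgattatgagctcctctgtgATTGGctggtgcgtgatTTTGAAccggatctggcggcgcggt
Mcm5, chr8:75109359-75109538, plus strand: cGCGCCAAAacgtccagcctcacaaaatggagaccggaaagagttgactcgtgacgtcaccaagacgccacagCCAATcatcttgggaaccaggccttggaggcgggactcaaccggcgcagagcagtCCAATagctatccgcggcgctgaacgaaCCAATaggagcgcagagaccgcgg
Mcm6, chr1:128359676-128359855, minus strand: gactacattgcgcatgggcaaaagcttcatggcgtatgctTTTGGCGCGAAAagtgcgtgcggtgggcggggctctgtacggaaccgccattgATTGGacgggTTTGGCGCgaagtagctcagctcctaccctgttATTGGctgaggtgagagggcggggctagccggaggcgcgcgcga

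In these windows the CHR word stands just downstream of a CCAAT box, printed as ATTGG where it lies on the other strand, in Cdk1, Ccnb2, Kif23 and Racgap1. The window of Cdk1 holds 2 CHR words, 2 CCAAT boxes and 1 E2F word. Mcm6 holds 3 E2F words, of which 2 overlap on opposite strands, and no CHR word. Kif23 and Racgap1, both higher in the CD8+ array, thus hold CHR and CCAAT words like Cdk1 and Ccnb2, which were lower.

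Over the whole windows, the CHR word was in 10 of 14 mitosis genes (71.4%), in 3 of 15 S phase genes (20.0%) and in 17.9% of all 32851 promoters of the table. CCAAT was in 12 of the 14 mitosis genes, in 10 of the 15 S phase genes and in 37.4% of all promoters. An E2F word was in 1 of the 14 mitosis genes, in 7 of the 15 S phase genes (46.7%) and in 2.26% of all promoters. The 4 mitosis genes with a promoter in the table and no CHR word, Bub1, Ccnb1, Nusap1 and Birc5, were lower in the CD8+ array like most of the others. The S phase genes with an E2F word were Mcm3, Mcm5, Mcm6, Mcm7 and Cdt1, all higher in the CD8+ array, and E2f2 and Cdc6, both lower. A match is a description of the letters and not evidence of binding.

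Differences over the whole array depended on brightness, and the mitosis genes were read against that. All genes were split at the median of their mean level over both arrays. Among the dimmer genes 13.6% were at least 1.5-fold lower in the CD8+ array, among the brighter ones 3.36%. Of the 12 mitosis genes on the dimmer side, 12 were lower in the CD8+ array, against 51.7% of all genes there, and 6 were at least 1.5-fold lower. On the brighter side, 4 of 6 were lower, against 40.2% of all genes there, and 2 at least 1.5-fold. The 5 S phase genes on the dimmer side had a median of -0.54, and the 13 on the brighter side one of 0.13. The 12 mitosis genes on the dimmer side had a median of -0.52, and the 6 on the brighter side one of -0.45. The medians of the 2 groups were thus alike on the dimmer side and differed on the brighter side. They rest on few genes, 5 S phase genes on the dimmer side and 6 mitosis genes on the brighter. Of the 9 S phase genes lower in the CD8+ array, 4 lay on the dimmer side and 5 on the brighter.

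Markers of other cells and states differed between the arrays as well, and their part in these differences was not tested. Of 8 regulatory T cell markers, 6 were measured on both arrays, and 5 of those were at least 1.5-fold lower in the CD8+ array, among them Ctla4, an inhibitory receptor, with 24.4 on the CD8+ array and 380 on the CD4+ array. The other, the integrin gene Itgae, lay the opposite way, with 7098 on the CD8+ array and 1552 on the CD4+ array, a 4.57-fold difference. Foxp3, the factor that defines these cells, and Il2ra, a chain of the IL-2 receptor, were not well above background in the CD8+ sample and give bounds of 21.2-fold and 8.001-fold lower there. The summed signal of the 8 was 27075 on the CD8+ array and 50649.9 on the CD4+ array. Of 7 activation markers measured on both arrays, 4 were at least 1.5-fold lower in the CD8+ array, among them Cd44 (-0.95) and Icos (-1.06), while Cd69 had -0.08 and the transferrin receptor gene Tfrc, made by growing cells, had 0.04. The sum of the activation markers was 31497 on the CD8+ array and 29353 on the CD4+ array, of which Il2rb, another chain of the IL-2 receptor, made up 24164 on the CD8+ array and 17367 on the CD4+ array.

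B cell markers lay the other way, with 9 of 9 higher in the CD8+ array, a median of 0.54 and sums of 14665 on the CD8+ array and 9487 on the CD4+ array; Cd79a and Cd79b had differences of 0.76 and 0.84. Of the germinal centre markers, whose cells divide fast, Rgs13 read 36.0 on the CD8+ array and 14.8 on the CD4+ array. S1pr2, from the same list, had -0.22, and of the 6 measured 3 were higher in the CD8+ array, with a summed signal for the list of 9739 on the CD8+ array and 13116 on the CD4+ array. All 6 plasma cell markers measured on both arrays were lower in the CD8+ array, with a median of -0.63 and sums of 2417 on the CD8+ array and 3711 on the CD4+ array; Sdc1, Jchain and Xbp1 had differences of -0.46, -0.52 and -0.73. These lists show B-lineage transcripts on both arrays, higher on one for some genes and on the other for the rest.

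Other lineages were mostly lower in the CD8+ array. The NK cell markers Ncr1 and Klrb1c had differences of -2.13 and -2.34, Klre1 was above background on neither array, and the list summed to 118.03 on the CD8+ array and 523 on the CD4+ array. The dendritic cell markers Itgax, Siglech and Cd209a had differences of -1.31, -2.65 and -3.21, and their list summed to 1123 on the CD8+ array and 2790.0 on the CD4+ array. The myeloid markers Lyz2, Csf1r and Adgre1 had differences of -2.17, 0.06 and -0.47, with a median of -0.32 over 7 genes and sums of 11492 on the CD8+ array and 14069.9 on the CD4+ array. Of 10 erythroid markers, which would mark dividing red cell precursors, 5 were above background on both arrays, with a median of -0.19 and sums of 2522 on the CD8+ array and 3051 on the CD4+ array. Epb42 and Ermap were among those above background on neither, while Alas2 had a difference of 0.03 and Klf1 one of -0.19.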

How the data were processed

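Total RNA of each sorted population was labelled with Cy3 and hybridised to 1 array, per the labels' protocols. Processed spot intensity was read from the deposited scanner files, where it is background-subtracted and detrended by Feature Extraction 10.1.1.1 per the file headers (the submitters' processing notes name 9.1), with no scaling between arrays. The authors' series values, used as an alternative, equal the median pixel intensity at 45018 of 45018 spots on each array, with medians of 73 on the CD8+ and 80 on the CD4+ array; they are linear and not centred.

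From these, log2 processed signals minus each array's 75th percentile (449 on the CD8+ and 508 on the CD4+ array) were computed, without control and outlier spots, and spots of a probe were averaged. A probe counted as above background when more than 50% of its spots did. A gene took its brightest probe among those above background, with preference for probes above it on both arrays; where 1 array lacked signal, the fold is a bound. Probes were named through RefSeq accessions (GRCm38.p6; the headers name mm9): 24840 of 41170 probes had 1 symbol. The named genes are the 44 members and, per further list, the 4 largest differences each way, plus the first 3 genes of each marker list; a few genes that this rule names are not reported here, and other genes were named for their role or after their values were seen. Members and lists were chosen with earlier results of these data known. No p-value was computed. The 12 alternatives are given in the closing section; normexp used an offset of 50 and loess a span of 0.3. The computation was tested on simulated data. Python 3.11.15 with numpy 2.4.6, pandas 2.3.3, statsmodels 0.14.6, and, for normexp, limma 3.58.1 under R 4.3.3 served as tools. The number of arrays limits the precision.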

Additional observations from a re-analysis of the deposited data

How the results depend on the processing

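Under the 12 alternatives, the median of the mitosis genes stayed between -0.57 (brighter probes alone) and -0.36 (median scaling), and that of the S phase genes between -0.0050 (loess) and 0.19 (median scaling). Median scaling moved the median of all genes from 0.03 to 0.17. Relative to the median of all genes, the mitosis median was -0.53, and -0.41 with normexp and -0.44 with the series values. The count of mitosis genes at least 1.5-fold lower in the CD8+ array was 8, but 5 with normexp and 5 with median scaling. That of the S phase genes was 2, but 1 with normexp, median scaling, quantile normalization, the series values, brighter probes alone (of 14 genes) or the mean over probes, and 4 with the percentile over detected probes. Over all 13058 genes above background on 1 or both arrays it was 1276 (9.77%), while normexp gave 644 and the series values 760. With other sets of genes it was 501 of 8057 (6.22%) for brighter probes alone and 2406 of 17176 (14.01%) with no filter on dim probes. On both arrays, 1017 genes were at least 1.5-fold lower and 662 higher, against 753 and 1101 with median scaling. The cause of these shifts was not tested. Of the 44 genes, 38 kept their sign under every alternative run for them; Cdc20, Mcm4, Pcna, Gmnn, Cdkn1a and Cdkn1b did not. None of the 44 that was at least 1.5-fold apart changed sign under an alternative. E2f1 is counted among these, although its probes disagree in sign, because no alternative used its dimmer probe alone. No paired analysis was possible because each cell type has 1 array, and no array could be left out.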

Other observations

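The kinesins were looked at as a family after the value of Kif23 was seen, so the list is a description. Of 35 kinesin genes named on the array, 27 were above background on both arrays, 17 of them lower and 10 higher in the CD8+ array (45.9% of all genes were lower), with a median difference of -0.12. Another 3, Kif13a, Kif17 and Kif24, were above background on the CD4+ array alone. Their bounds were 1.95-fold, 3.07-fold and 1.88-fold lower in the CD8+ array, and the counts below leave them out. Only 2 exceeded 1.5-fold in favour of the CD8+ array (5.54% of all genes did), Kif23 and Kifc3, a minus-end motor, which had scaled signals of 152 on the CD8+ array and 54.3 on the CD4+ array. In the other direction 5 did, against 8.51% of all genes. Among the 27, the largest such difference was that of Kifc5b. It read 293 on the CD8+ array and 755 on the CD4+ array, 2.58-fold lower in the CD8+ array. The others included Kif26a, with 68.1 on the CD8+ array and 111.7 on the CD4+ array, the mitotic motor genes Kif22, with 1591 on the CD8+ array and 2545 on the CD4+ array, and Kif18b, with 26.4 on the CD8+ array and 45.1 on the CD4+ array. The fifth was Kif3a, a motor of cilia and transport that is not tied to mitosis, with 56.4 on the CD8+ array and 106 on the CD4+ array. Kif20b, a relative of Kif20a that also acts late in division, had a difference of 0.19.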
